A study of Mus musculus with 36 samples.

Results

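The members described here are 9 genes of the spectrin, ankyrin and spectraplakin cytoskeleton, namely Sptan1, Sptbn1, Sptbn4, Ank1, Ank2, Ank3, Macf1, Dst and Utrn. They were chosen by gene name, not by any measured value, and all 9 had a row among the 16614 genes of the count table. Ribosome-protected fragments (RPFs) and total RNA of the homogenate were sequenced from whole brain of postnatal day 5 mice, in 36 libraries that form 12 groups of 3. Mice were wild type (WT) or FMR1-KO (FMR1 KO), a knockout of the gene for the RNA-binding protein FMRP. Per the methods both were C57BL/6. Each preparation pooled 10 brains, so that a library averages over animals and over all brain cell types. RPFs came from the pellet of a sucrose gradient, which holds RNA granules with stalled ribosomes, and from fraction 5/6, which the sample titles call polysome. Ribosome clusters were seen in both. Granules were isolated either with 10 mM MgCl2 and the standard nuclease digestion or with 2.5 mM MgCl2 and a low nuclease digestion. These 2 preparations differ in both respects, which cannot be told apart. The labels call the replicates separate samples, and the 3 RPF replicates of a group were given different linkers and pooled for the later library steps, so that p-values measure the spread between preparations, and group and library pool cannot be told apart.

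Spectrins are long rods built from an alpha and a beta chain that cross-link short actin filaments into a lattice under the plasma membrane, and in axons this lattice forms evenly spaced rings. Ankyrins fasten the lattice to ion channels, transporters and cell adhesion molecules, and they gather sodium channels at the axon initial segment. Spectraplakins are very large proteins with spectrin repeats that tie actin to microtubules, and utrophin links actin to dystroglycan at the membrane. All of these proteins are encoded by long messages.

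Several libraries stood apart. Without Cdk8, whose row took 36.7% to 63.4% of the counts of the 12 standard RPF libraries, the pellet libraries of the standard preparation held 11922200 to 21274800 counts and the standard RNA-seq libraries 112240000 to 147208000. Levels below are therefore CPM, counts scaled to the library total without Cdk8. Fmr1 was lower in FMR1 KO by -3.72 (log2 fold change) in the pellet and by -1.90 in RNA-seq (edgeR's quasi-likelihood test, adjusted p = 0.00513 and 3.67e-05). In the library labelled WT fraction 5/6 replicate 3, however, Fmr1 stood at 3.17 CPM, near the level of the FMR1 KO libraries. FMR1 KO fraction 5/6 replicate 3 held 6765065 counts in all, the fewest of the 36 libraries. In the low nuclease preparation, 3 RNA-seq libraries (replicate 2 of WT, replicates 2 and 3 of FMR1 KO) had up to 85.0% of their counts on 10 genes. Summed levels of 5 neuronal markers ranged from 5894.6 to 7047 CPM in the WT pellet and from 4642 to 5680 CPM in WT RNA-seq, and none of these markers was at 0.

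Footprint peaks are the positions where RPFs pile up on a transcript, and the methods ask that a peak lie at least 4 times above the average of its transcript, though whether the peaks analysed here met that minimum is not given in the sources used here. Of the 9 members, only Sptbn1 (beta-II spectrin, the main beta chain of the brain) and Ank2 (ankyrin-B, the ankyrin of the axon shaft) had peaks on the transcript that the count table names, and Sptan1 had peaks on another of its transcripts. The 4 sequences below are the positions on each gene where peaks recurred in the most pellet libraries, 3 on Sptbn1 and 1 on Ank2, and they were chosen after their values were seen. Each is a stretch of 30 nt around the middle of the peak, read 5′ to 3′ on the minus strand of GRCm38 with the transcripts of GENCODE M21, and capitals mark a match to AGGA or TGGA.
Sptbn1 site 1: caatctgcagaatgcatttaacctggcaga
Sptbn1 site 3: ggccttggctgtcgaAGGAaagcgcattgg
Sptbn1 site 5: gacagacatcgctgcatatgaagaacgagt
Ank2 site 1: aacacaaaacAGGActctttgagcacaagt
The Sptbn1 sites lie at chr11:30149538-30149567 in exon 6, chr11:30146743-30146772 in exon 7 and chr11:30142331-30142360 in exon 11, and each was a peak in 4 of the 6 pellet libraries. The Ank2 site lies at chr3:126946212-126946241 in exon 38 and was a peak in 3 of the 6. All 4 are in coding sequence, 10.0%, 12.1%, 20.0% and 51.0% along it.

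On GRCm38, the spectrin genes lie at chr2:29965560-30031451 (Sptan1, plus strand), chr11:30099395-30268175 (Sptbn1, minus) and chr7:27356383-27447686 (Sptbn4, minus). The ankyrin genes lie at chr8:22974844-23150497 (Ank1, plus), chr3:126921612-127499350 (Ank2, minus) and chr10:69398773-70027438 (Ank3, plus). Macf1 lies at chr4:123349633-123684360 (minus), Dst at chr1:33908225-34308661 (plus) and Utrn at chr10:12382188-12869365 (minus). The coding sequences of their named transcripts run from 5421 nt in Ank3 to 22218 nt in Dst.

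Per kilobase of exon, the members spanned a wide range of abundance. In WT RNA-seq of the standard preparation, Sptan1 (alpha-II spectrin, the partner of all brain beta chains) was highest at 69.7 ± 11.2 RPKM (SD, n = 3), followed by Sptbn1 at 25.8 ± 1.68 and Ank2 at 14.4 ± 1.49 RPKM. The libraries of these 3 genes did not overlap with each other. Macf1 (8.68 RPKM) and Ank3 (8.11 RPKM) overlapped, as did Dst (4.25 RPKM) and Sptbn4 (4.14 RPKM), and Ank1 (3.19 RPKM) and Utrn (2.53 RPKM), so that no order could be given within these pairs. In the WT pellet, Sptan1 stood at 108 ± 15.2 RPKM, Sptbn1 at 20.9 ± 0.761, Ank2 at 10.2 ± 0.588 and Ank3 at 4.22 ± 0.112 RPKM, again without overlap. Dst had the lowest mean in the WT pellet at 1.05 ± 0.287 RPKM and overlapped with Utrn. These values divide by the union of all exons of a gene, whereas ribosomes protect mainly coding sequence. By the length of the named transcript instead, the WT RNA-seq means of Ank3 and Ank2 were 41.1 and 40.5 RPKM and their libraries overlapped, so that no order could be given.

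**Figure D1:**
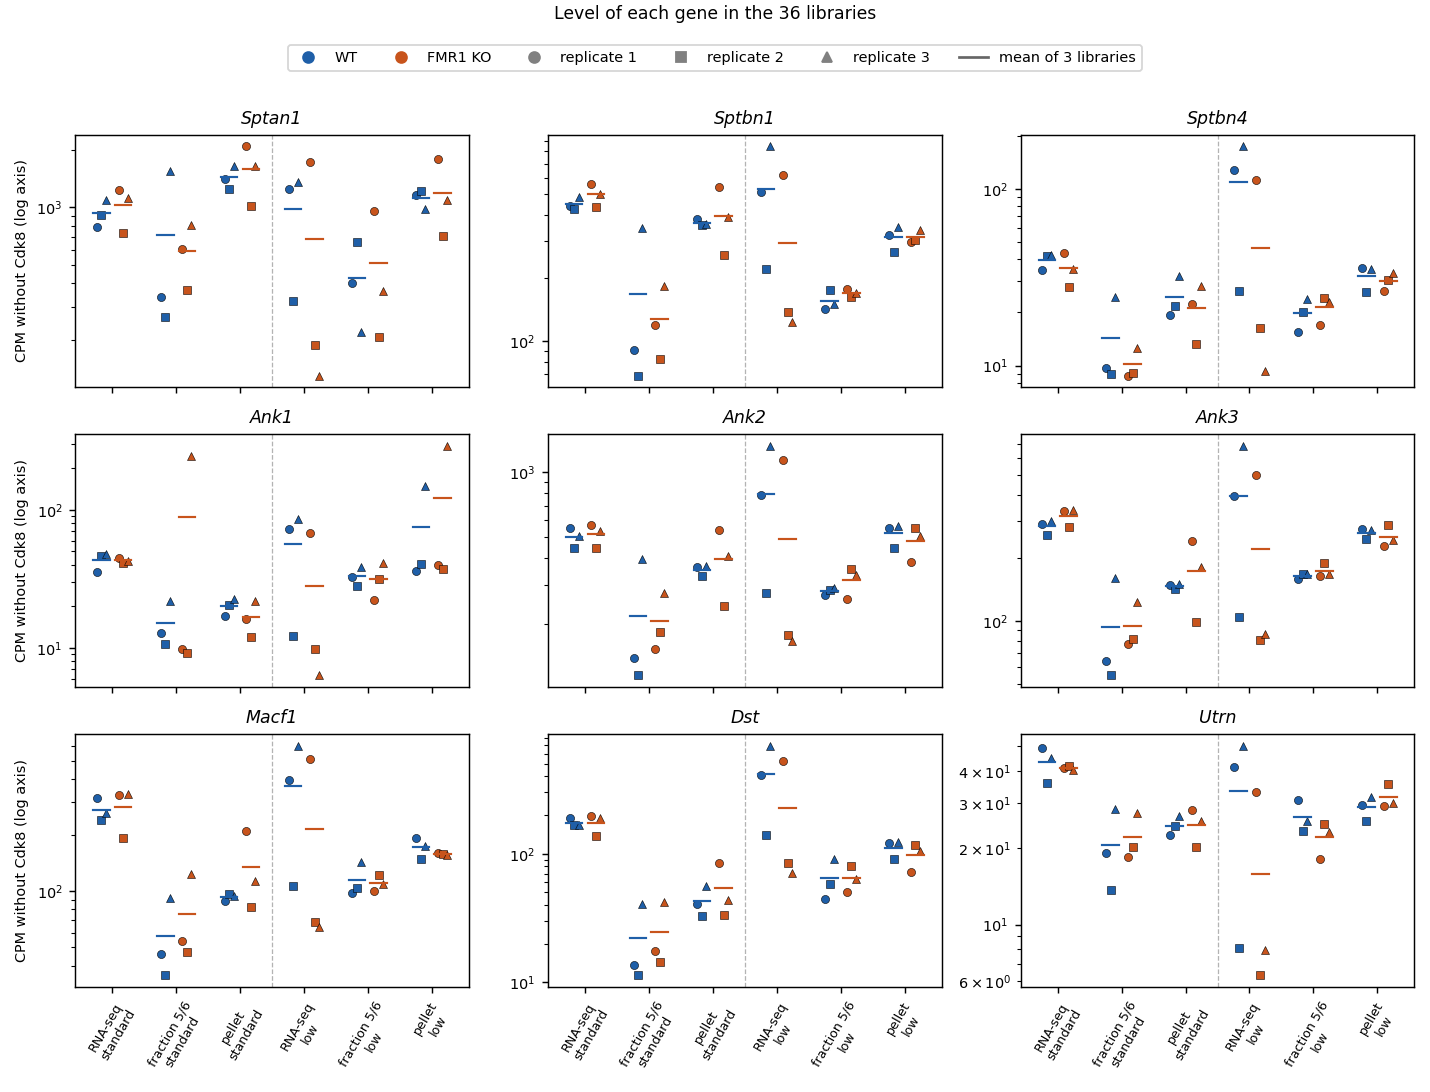
Level of each of the 9 members in each of the 36 libraries, as CPM without Cdk8 on a log axis, with 1 panel a gene (each with its own axis), 1 point a library and bars at the group means. In the standard libraries 8 of 9 WT means are lower in the pellet than in RNA-seq, Sptan1 being the exception, and the 3 low nuclease RNA-seq libraries with most counts on 10 genes lie below the rest of their kind.

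Occupancy compares RPFs of the pellet with RNA-seq of the same genotype and preparation, and so gives the footprints in the pellet relative to the abundance of the message. With TMM scaling, Sptan1 and Sptbn1 had the highest values of the members in both genotypes and Dst the lowest. Sptan1 was at 1410, 1250 and 1654 CPM in the 3 WT pellet libraries and at 792, 913 and 1090 CPM in WT RNA-seq. Every WT pellet library was above every WT RNA-seq library for Sptan1, whereas in FMR1 KO the groups overlapped (1021 to 2098 CPM in the pellet and 735 to 1227 CPM in RNA-seq). With TMM scaling, its log2 fold change was 1.80 ± 0.21 (SE; edgeR's quasi-likelihood test, adjusted p = 0.000194) in WT and 1.72 ± 0.25 (adjusted p = 0.000861) in FMR1 KO.

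The scaling sets the sign of most of the other members. Scaling by total count without Cdk8 moved the median over all genes by -1.15 in WT and -1.10 in FMR1 KO, and of the 9 members only Sptan1 then kept a positive WT value (0.63). The position of the members against the median gene hardly moved. The median of the members was 0.33 in WT against -0.11 over all 16166 genes tested, and 0.34 against -0.07 in FMR1 KO. Their distance from the median gene was 0.44 in WT with TMM and 0.43 by total count.

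Sptbn1 was at 381, 356 and 361 CPM in the WT pellet and at 440, 428 and 484 CPM in WT RNA-seq. Each pellet library was thus below each RNA-seq library on this scale, while with TMM the log2 fold change was 0.86 ± 0.13 (edgeR, adjusted p = 0.000692) and by total count -0.30. Against the median gene Sptbn1 was higher by 0.97. Sptbn4, the beta chain of the axon initial segment and nodes of Ranvier, was at 19.2, 21.7 and 32.1 CPM in the WT pellet and at 34.8, 41.9 and 42.2 CPM in WT RNA-seq. Its log2 fold change of 0.47 ± 0.23 with TMM did not pass (edgeR, adjusted p = 0.11) and was -0.71 by total count.

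Of the ankyrins, Ank2 was at 365, 332 and 369 CPM in the WT pellet and at 553, 449 and 506 CPM in WT RNA-seq, with no overlap. Its log2 fold change was 0.66 ± 0.15 with TMM (edgeR, adjusted p = 0.00618) and -0.50 by total count. Ank3, ankyrin-G, which organises the axon initial segment, had a log2 fold change of 0.22 ± 0.12 (adjusted p = 0.157), and Ank1, the ankyrin first known from red cells, one of 0.05 ± 0.17 (adjusted p = 0.798).

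In WT, both spectraplakins lay below 0. Dst (dystonin) was at 40.7, 32.8 and 56.0 CPM in the WT pellet and at 190, 166 and 169 CPM in WT RNA-seq. Its log2 fold change was -0.84 ± 0.24 (edgeR, adjusted p = 0.0163). Macf1, a linker of actin and microtubules, was at 88.7, 96.2 and 94.3 CPM in the WT pellet and at 315, 241 and 262 CPM in WT RNA-seq, a log2 fold change of -0.39 ± 0.14 (adjusted p = 0.0367). In FMR1 KO neither passed with TMM, with Dst at -0.61 ± 0.29 and Macf1 at 0.02 ± 0.31 (edgeR, adjusted p = 0.102 and 0.954). By total count both were lower there, at -1.69 and -1.07 (edgeR, adjusted p = 0.00195 and 0.0293), where 62.4% of all genes were. The difference in occupancy between the genotypes was 0.27 ± 0.42 for Dst and 0.45 ± 0.37 for Macf1, and neither passed (edgeR, adjusted p = 0.979 and 0.918). Utrn, utrophin, was at 22.3, 24.3 and 26.7 CPM in the WT pellet and at 49.1, 36.0 and 44.9 CPM in WT RNA-seq, a log2 fold change of 0.33 ± 0.16 with TMM (adjusted p = 0.0967) and -0.83 by total count.

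In all, 3 of 9 members were higher and 2 lower by WT occupancy with TMM, where 31.1% of all genes tested were higher and 34.3% lower. In FMR1 KO, 4 were higher (Sptan1, Sptbn1, Ank2 and Utrn) and 0 lower, where 31.9% of all genes were higher and 35.2% lower. Without WT RNA-seq replicate 1 the members called fell from 5 to 3 in WT, and without FMR1 KO pellet replicate 1 from 4 to 2 in FMR1 KO. By total count 1 member was higher (Sptan1) and 7 lower in WT, and 0 were higher and 6 lower in FMR1 KO, where Sptan1 at 0.63 did not pass (edgeR, adjusted p = 0.135). On that scale 8.69% of all genes were higher and 67.9% lower in WT, and 7.8% and 62.4% in FMR1 KO. Sptan1 stood above 92.3% of the genes tested in WT and above 90.6% in FMR1 KO, whereas Dst stood above 31.3% and 35.6%. In the low nuclease preparation without the RNA-seq library on 10 genes, Sptan1 had an occupancy of 0.28 and Sptbn1 of -0.63 in WT, neither of which passed (edgeR, adjusted p = 0.285 and 0.0703), and Dst one of -1.82 (adjusted p = 0.00156). Sptbn4 (-1.74) and Macf1 (-1.04) were also lower there (adjusted p = 0.000688 and 0.00699), where 29.7% of all genes were and 29.2% were higher. In FMR1 KO, with 1 RNA-seq library left, Sptbn4 (-1.46), Macf1 (-1.25) and Dst (-1.99) were lower, where 19.1% of all genes were and 19.4% were higher.

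**Figure D2:**
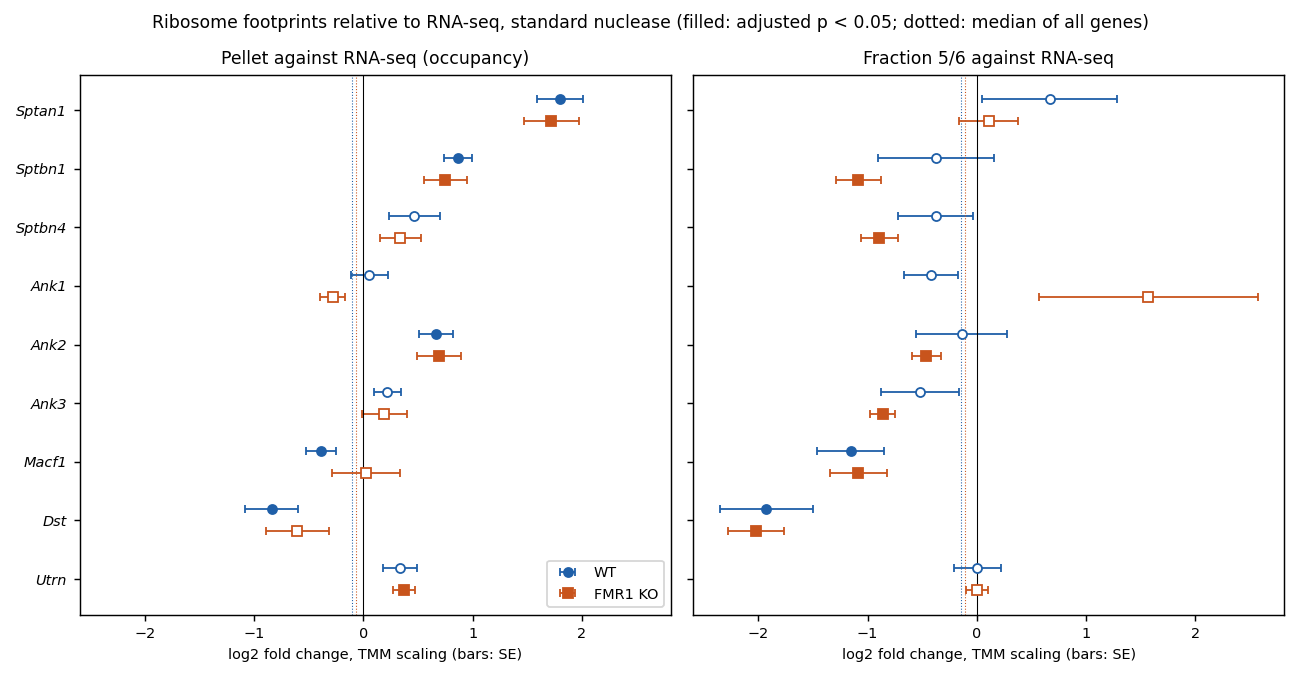
Log2 fold change (TMM, bars ± SE) of each member for pellet RPFs over RNA-seq (left) and fraction 5/6 RPFs over RNA-seq (right), with WT as circles, FMR1 KO as squares, filled where the adjusted p passed 0.05, and dotted lines at the median of all genes. On the left Sptan1 is highest (1.80 in WT) and Dst lowest (-0.84), and by total count without Cdk8, which is not drawn, 8 of 9 WT values on the left are negative.

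RPFs of fraction 5/6 were compared with RNA-seq in the same way. The values were lower than those of the pellet for all 9 members in WT and for 8 in FMR1 KO. The exception was Ank1 (1.57 against -0.28, set by 1 library as given below). In WT, 0 members were higher and 2 were lower (Macf1 at -1.16 and Dst at -1.93; edgeR, adjusted p = 0.0161 and 0.00815), where 24.7% of all genes were higher and 31.3% lower. In FMR1 KO, 0 were higher and 6 lower, where 29.8% were higher and 33.2% lower. These 6 were Sptbn1 (-1.09), Sptbn4 (-0.89), Ank2 (-0.46), Ank3 (-0.86), Macf1 (-1.08) and Dst (-2.02). When the library labelled WT fraction 5/6 replicate 3 was left out, 7 members were lower in WT, with Sptbn1 at -1.22 and Dst at -2.52, beside 32.1% of all genes, and without WT RNA-seq replicate 1 only 1 was. By total count 8 members were lower in WT and 7 in FMR1 KO, where 59.7% and 56.0% of all genes were, and 0 were higher, where 5.63% and 8.09% of all genes were. The pellet and fraction 5/6 comparisons share their RNA-seq libraries.

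Enrichment compares the pellet with fraction 5/6 directly. Members were called higher in the pellet in 3 of the 4 fits made, and none was called lower. In FMR1 KO of the standard preparation, Sptbn1 was at 539, 259 and 390 CPM in the pellet and at 119, 82.1 and 183 CPM in fraction 5/6. Sptan1 was at 2098, 1021 and 1656 CPM in the pellet and at 602, 369 and 807 CPM in fraction 5/6. For both spectrins each pellet library was above each fraction 5/6 library. Their log2 fold changes were 1.94 ± 0.27 for Sptbn1 and 1.72 ± 0.32 for Sptan1 (edgeR, adjusted p = 0.0082 and 0.0204).

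Ank2 was at 543, 241 and 410 CPM in the FMR1 KO pellet and at 153, 183 and 278 CPM in fraction 5/6, and the groups overlapped through pellet replicate 2. Its log2 fold change was 1.26 ± 0.23 (edgeR, adjusted p = 0.0181). Sptbn4 was at 22.2, 13.2 and 28.3 CPM in the pellet and at 8.77, 9.10 and 12.6 CPM in fraction 5/6, without overlap, a log2 fold change of 1.33 ± 0.17 (adjusted p = 0.00585). Dst (1.52), Ank3 (1.16) and Utrn (0.47) were also higher, and Macf1 at 1.21 ± 0.34 did not pass (edgeR, adjusted p = 0.066). DESeq2 called Macf1 and not Utrn. In edgeR, 7 of 9 members were higher and 0 lower, where 9.09% of all genes were higher and 2.35% lower. The median of the members was 1.26 against -0.04 over all genes. By total count, which moved the median gene by -0.30, 0 members passed in FMR1 KO, where 1.12% of all genes were higher and 0.189% lower, while the distance of the members from the median gene stayed at 1.30. With 1 library left out at a time, 2 to 6 members were called, the fewest without pellet replicate 3 or fraction 5/6 replicate 1.

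In WT of the standard preparation, no member passed the enrichment test. Sptbn1 was at 91.5, 68.7 and 345 CPM in the 3 fraction 5/6 libraries and Sptan1 at 336, 266 and 1553 CPM, beside the WT pellet values given above. The high value in each case was the library labelled replicate 3, the one with little Fmr1, and it was the highest of its group for all 9 members. Its levels lay within the range of the 6 standard pellet libraries for 8 of 9 members (Utrn, at 28.5 CPM, was just above it) and above every other standard fraction 5/6 library for 6. By its levels it thus resembled a pellet library, and the WT values of fraction 5/6 and of enrichment that include it rest on its label. With it, the log2 fold changes ran from 0.28 (Utrn) to 1.18 (Sptbn1), edgeR and DESeq2 called 0 members, and 0 members had an unadjusted p below 0.05. Of all genes, 0.0153% were higher and 0.00765% lower, and 801 of 13076 had an unadjusted p below 0.05. Without that library 6 members were higher, where 7.76% of 13240 genes were. They were Sptan1 (2.20 ± 0.27), Sptbn1 (2.13 ± 0.15), Ank2 (1.40 ± 0.19), Ank3 (1.22 ± 0.17), Macf1 (1.12 ± 0.13) and Dst (1.73 ± 0.34), with edgeR's adjusted p from 0.00646 to 0.0422.

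The low nuclease preparation gave the comparison in other libraries, and 7 of 9 members were higher in each genotype. By total count 5 passed in WT and 4 in FMR1 KO, where 10.1% and 7.41% of all genes were higher. Macf1 and Dst, at 0.59 and 0.78 on that scale against 0.70 and 0.91 with TMM, no longer passed in WT (edgeR, adjusted p = 0.0679 and 0.083). In WT, Sptbn1 was at 321, 267 and 351 CPM in the pellet and at 143, 175 and 151 CPM in fraction 5/6. Ank2 was at 553, 447 and 567 CPM in the pellet and at 270, 286 and 292 CPM in fraction 5/6. Both genes had every pellet library above every fraction 5/6 library, with log2 fold changes of 1.11 ± 0.15 and 1.00 ± 0.14 (edgeR, adjusted p = 0.00941 and 0.0102). Of all genes, 14.3% were higher and 8.56% lower in WT, and 8.79% higher and 11.7% lower in FMR1 KO.

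Sptan1 varied widely between low nuclease libraries. In FMR1 KO it was at 1785, 706 and 1090 CPM in the pellet and at 951, 209 and 363 CPM in fraction 5/6, and the groups overlapped. Its log2 fold change of 1.43 ± 0.68 did not pass there (edgeR, adjusted p = 0.183), while in WT it was 1.50 ± 0.42 (adjusted p = 0.0478). DESeq2 called Sptan1 in both genotypes. Utrn was not called in WT (0.23 ± 0.16) and was higher in FMR1 KO (0.71 ± 0.13). The difference in enrichment between the genotypes was also fitted in this preparation, and edgeR called 0 of 9 members there. Of all 15920 genes tested, 1 was higher and 1 lower. The median of the members was 0.91 against -0.02 over all genes in WT and 0.77 against -0.04 in FMR1 KO. With 1 library left out at a time, 3 to 7 members were called in WT and 0 to 6 in FMR1 KO, the 0 without FMR1 KO fraction 5/6 replicate 3.

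**Figure D3:**
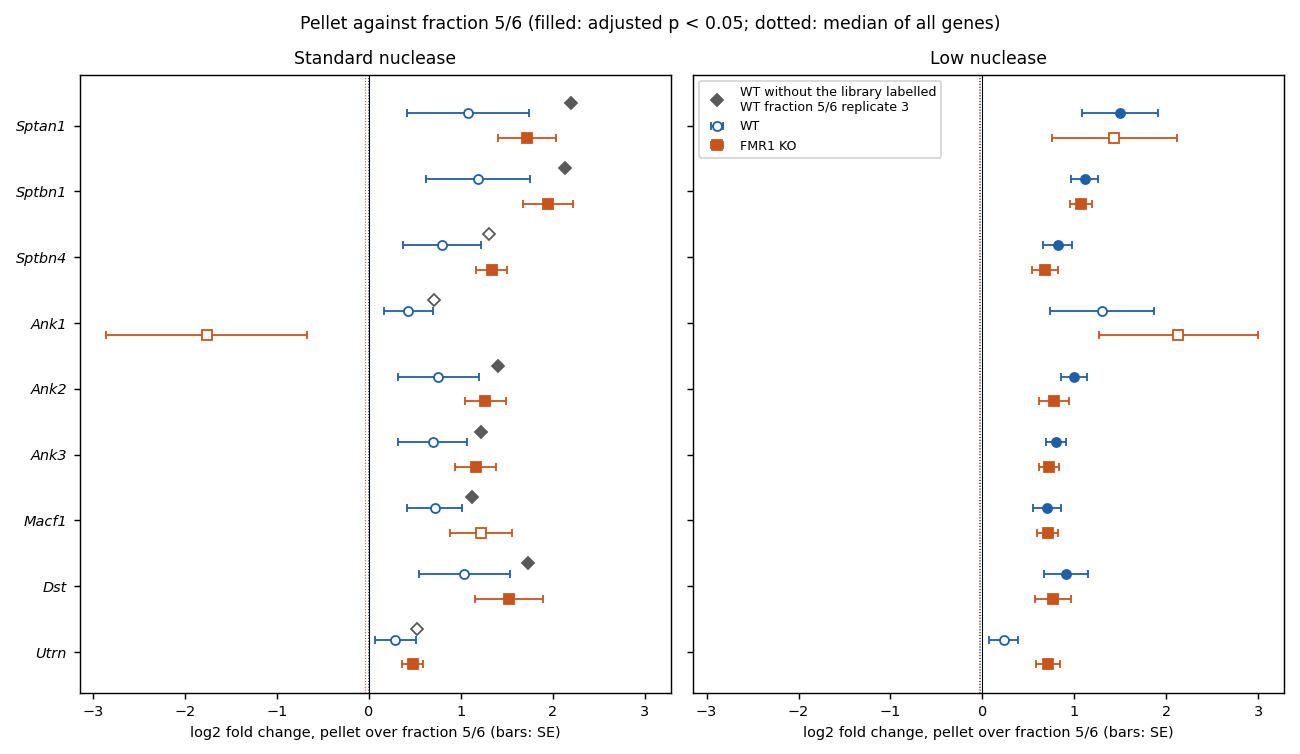
Enrichment of each member (log2 fold change of pellet over fraction 5/6, TMM, ± SE) in the standard preparation (left) and the low nuclease preparation (right), with WT as circles, FMR1 KO as squares, and WT without the library labelled fraction 5/6 replicate 3 as diamonds, filled where the adjusted p passed 0.05. Apart from Ank1 in FMR1 KO of the standard preparation, the members lie above the median gene in each fit, and the WT values of the standard preparation are larger without that library (2.13 against 1.18 for Sptbn1).

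Ank1 did not follow the other ankyrins, and single libraries set its values. In FMR1 KO fraction 5/6 of the standard preparation it was at 9.90, 9.25 and 246 CPM, in the FMR1 KO low nuclease pellet at 40.0, 37.0 and 291 CPM, and in the WT low nuclease pellet at 35.8, 40.6 and 148 CPM. In each case replicate 3 was the high library, and no other member was raised to this extent there. Ank1 is a red cell ankyrin. The summed level of the red cell markers was 35.6 CPM in the high library of the WT low nuclease pellet, against 27.3 and 26.2 CPM in the others of its group, and 21.8 CPM in that of the FMR1 KO low nuclease pellet, against 16.3 and 22.8 CPM. In FMR1 KO fraction 5/6 the sum was 14 CPM in the high library, against 9.80 and 6.14 CPM in the others. The part of red cells in these values was not tested. Its enrichment in FMR1 KO was -1.77 ± 1.09 with all libraries (edgeR, adjusted p = 0.305) and 0.90 ± 0.18 without the high library (adjusted p = 0.0474). For the low nuclease libraries it was 1.30 ± 0.57 in WT and 2.13 ± 0.86 in FMR1 KO with all libraries, and 0.32 ± 0.18 and 0.51 ± 0.27 without the high ones, none of which passed. MicroRNA genes lie within Ank1, and whether counting used strand is not given in the sources used here.

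Loss of FMRP was compared with WT in 7 settings, and edgeR and DESeq2 called no member in any of them. No member had an unadjusted p below 0.05 in any. In the pellet the log2 fold changes of FMR1 KO over WT ran from -0.25 (Ank1) to 0.54 (Macf1), with standard errors of 0.14 to 0.36, and in RNA-seq from -0.13 (Sptbn4) to 0.20 (Ank3), with standard errors of 0.10 to 0.19. The libraries of the 2 genotypes overlapped for all 9 members in the pellet, in fraction 5/6 and in RNA-seq. In standard fraction 5/6 the overlap of Sptan1, Ank2, Ank3, Macf1 and Dst rested on WT replicate 3, as labelled. Without it every FMR1 KO library lay above every remaining WT library for these genes, while the other members still overlapped. Few other genes passed either. The share of all genes called was 0.015% in the pellet, 0% in fraction 5/6, 0.0735% in RNA-seq, 0.0672% for occupancy and 0% for enrichment, and in the low nuclease preparation 0.0197% in the pellet and 0.0445% in fraction 5/6. For the difference in enrichment between the genotypes, Sptbn1 was at 0.79 ± 0.66 with all libraries and at -0.17 ± 0.32 when WT fraction 5/6 replicate 3, as labelled, was left out. In fraction 5/6 itself the median of the members moved from -0.28 to 0.26 without that library. There 0 members passed in edgeR, where 0% of all genes were higher and 0.0301% lower.

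The 2 preparations were compared in the pellet of each genotype. In WT, Sptan1 (0.90 ± 0.21) and Sptbn1 (0.76 ± 0.14) were higher in the standard preparation, and Macf1 (-0.35 ± 0.11) and Dst (-0.82 ± 0.26) were lower (edgeR, adjusted p = 0.0188, 0.0115, 0.0431 and 0.0478). These 4 calls fell to 1 without standard pellet replicate 1 or low nuclease pellet replicate 1 or 3 and to 2 without standard pellet replicate 2 or with RLE factors. DESeq2 did not call Macf1 and called Ank1 instead. Of all genes, 15.1% were higher and 23.8% lower. By total count 0 members were higher, with Sptan1 at 0.36 and Sptbn1 at 0.23, and 5 were lower (Ank1, Ank2, Ank3, Macf1 and Dst), where 1.98% of all genes were higher and 48.9% lower. In FMR1 KO, Sptbn1 alone passed in edgeR (0.83 ± 0.20, adjusted p = 0.0417), where 7.34% of all genes were higher and 9.35% lower. DESeq2 called Sptbn1 and Ank1. In edgeR no member passed without any 1 of the 3 standard pellet libraries or of low nuclease replicates 2 and 3. By total count Sptbn1 at 0.34 did not pass (adjusted p = 0.445) and Ank1 was lower (-2.88, adjusted p = 0.0379), where 1.92% of all genes were higher and 24.9% lower. The Ank1 value rests on its high library of the low nuclease pellet, without which it moved with TMM from -2.35 to -0.75 in FMR1 KO and from -1.38 to -0.39 in WT. None of these passed in edgeR, whereas DESeq2 called Ank1 in both genotypes with all libraries. Total count moved the median gene by -0.53 in WT and -0.51 in FMR1 KO, so that these values also are relative to TMM.

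Other components of the membrane skeleton were counted over 44 genes, of which 43 had a row. By WT occupancy with TMM, 22 of 42 tested were higher and 8 lower, beside 31.1% and 34.3% of all genes. In FMR1 KO 23 were higher and 12 lower, beside 31.9% and 35.2%. The partners are given with TMM only. By total count 8.69% of all genes were higher and 67.9% lower in WT, so the balance of such counts depends on the scaling. The extremes of the list were Plec (plectin, another linker of cytoskeletal filaments) at 7.71 in both genotypes and Kcnq3 (a subunit of the axonal M-type potassium channel) at -3.26 in WT and -3.42 in FMR1 KO. Plec stood at 6408 ± 1288 CPM in the standard WT pellet and at 67.8 ± 12.2 CPM in standard WT RNA-seq. In the low nuclease WT pellet it stood at 82.0 ± 7.66 CPM, and its WT occupancy in that preparation was -1.27. The other plakins were higher in 5 of 5 in both genotypes, and the other spectrins in 0 of 3, of which 2 were lower in WT and 1 in FMR1 KO.

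By enrichment, 13 membrane proteins that bind ankyrin were tested. In WT of the standard preparation edgeR and DESeq2 called 0 of them and 0 had an unadjusted p below 0.05, with a median of 0.97. In the other fits, 8 were higher in FMR1 KO of the standard preparation, 9 in WT low nuclease and 4 in FMR1 KO low nuclease, beside 9.09%, 14.3% and 8.79% of all genes, and none was lower. Their medians were 1.25, 1.70 and 1.06, against -0.04, -0.02 and -0.04 over all genes. The adhesion molecules L1cam and Chl1, which bind ankyrin through their cytoplasmic tails, were the highest of the list in these last 3 comparisons, with L1cam at 2.73, 3.16 and 2.59 and Chl1 at 2.20, 2.50 and 2.24. The 11 genes of the junction between actin and spectrin had medians of -0.11, -0.17 and 0.06, and of them only Dmtn passed (-0.43, FMR1 KO low nuclease). Medians were -0.12, 0.03 and 0.22 for the dystrophin complex, 0.46, 0.94 and 0.33 for other plakins and 0.68, 0.55 and 0.44 for other spectrins. Over all partner lists 10 of 40, 14 of 42 and 7 of 42 were higher, and 0, 1 and 1 lower. Whether enrichment goes with ankyrin binding was not tested.

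Across the 12 group means, the genes whose profile was most like the mean profile of the members were Mical3 (Pearson r = 0.976), Tnrc18 (0.962), Atp13a4 (0.957), Pxdn (0.957) and Kmt2d (0.956), of 16579 genes compared. The groups differ in kind of library and preparation, so these values describe a shared profile and were not tested. The r of single members with that mean ran from 0.54 for Sptan1 to 0.98 for Ank2. The low nuclease RNA-seq means in these profiles include the libraries with most counts on few genes. Atp13a4 was a weakly counted gene, with group means of 0.58 to 2.15 CPM.

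On the transcript, peaks of Sptbn1 numbered 42, 21 and 21 in the 3 WT pellet libraries and 40, 11 and 26 in FMR1 KO. In fraction 5/6 they numbered 4, 0 and 17 in WT and 1, 2 and 0 in FMR1 KO. The 17 belong to the library labelled WT fraction 5/6 replicate 3, and without it every pellet library had more peaks than every fraction 5/6 library. Ank2 had 51, 5 and 5 peaks in pellets of WT, 69, 1 and 18 in pellets of FMR1 KO, 1, 0 and 12 in WT fraction 5/6 and 0 in the 3 FMR1 KO fraction 5/6 libraries. Peaks were called in each library at its own depth, so no test was made of these numbers. Of the 347 peaks of both genes, 346 lay in coding sequence.

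The peaks of Sptbn1 were crowded toward the start of its coding sequence. Of 160 coding peaks in the pellet, 108 (67.5%) lay in the leading of 3 equal parts of the coding sequence, with 50% to 90.5% in single libraries. Over all transcripts the share was 26.6%, with 25.7% to 27.4% in single libraries, and over transcripts with at least 6000 coding nt it was 32.6%. Peaks of 1 transcript are not independent of each other, and the difference was not tested. Ank2 had 25.5% of its 149 pellet peaks there. In Ank2, exon 38 of 46 (chr3:126941610-126947807, 6198 nt), the large exon that neurons include to make giant ankyrin-B, holds 52.6% of the coding sequence and held 97 of the 149 peaks (65.1%). By library it held 30 of 51, 1 of 5 and 4 of 5 in WT and 48 of 69, 1 of 1 and 13 of 18 in FMR1 KO.

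**Figure D4:**
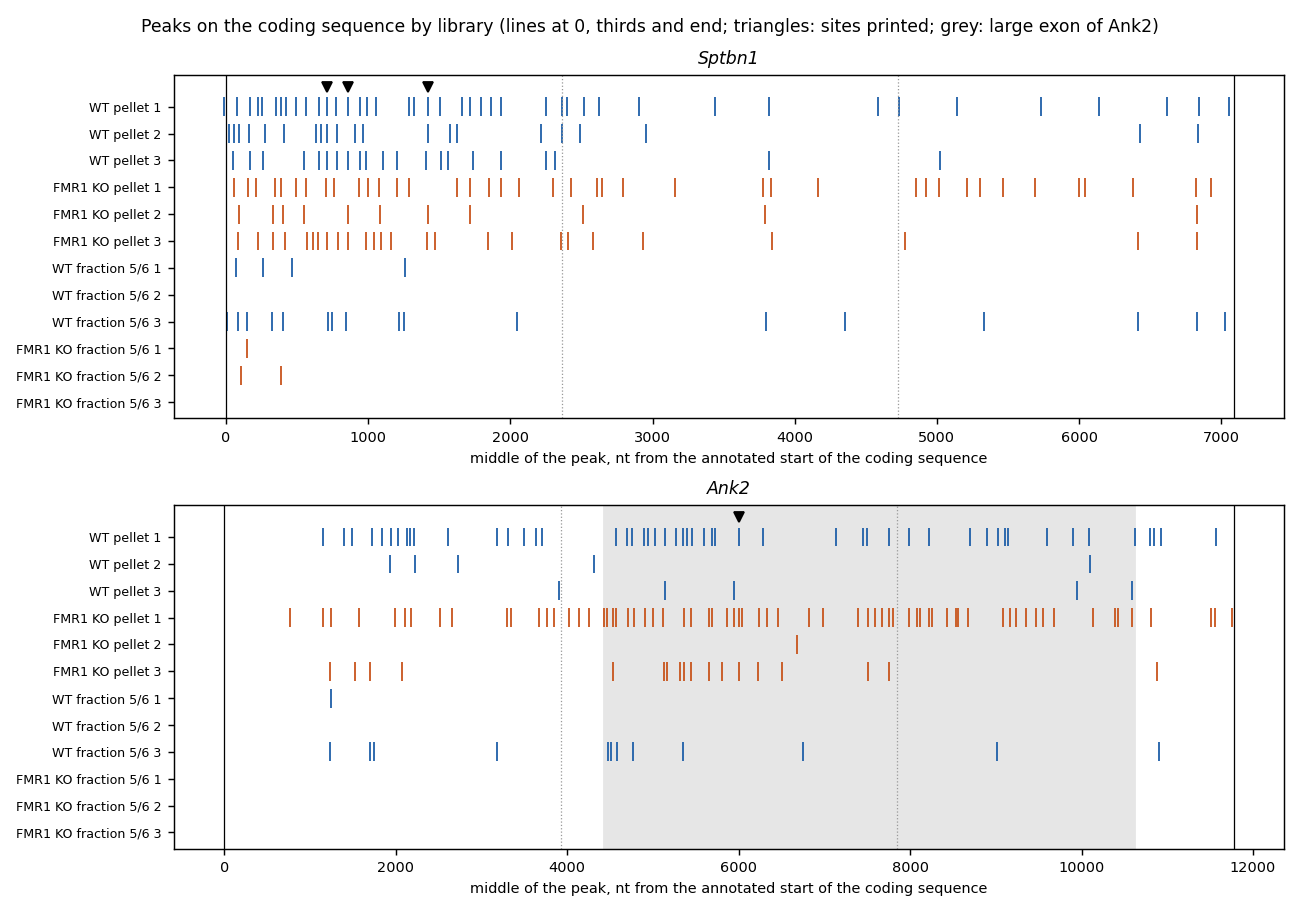
Positions of the deposited peaks along the transcripts of Sptbn1 and Ank2, in nt from the start of the coding sequence, with 1 tick a peak, 1 row for each of the 12 standard RPF libraries, triangles at the sites printed above and grey over the large exon of Ank2. Sptbn1 peaks are dense in the leading of 3 equal parts of the coding sequence (67.5% of the coding peaks in the pellet), and Ank2 peaks lie mostly in the large exon (65.1%).

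Peaks seldom fell at the same position in different libraries. With middles matched within 6 nt, the pellet peaks of Sptbn1 made 120 sites, of which 0 were found in all 6 libraries, 3 in at least 4 and 9 in at least 3. Those of Ank2 made 132 sites, of which 1 was found in at least 3, but with 5, 5, 1 and 18 Ank2 peaks in 4 of the 6 libraries few sites could recur. Over all transcripts, 8.85% of 111981 sites were found in at least 3 libraries and 274 in all 6, and 7.01% of the 2611 transcripts with peaks in every pellet library had a site in all 6.

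The letters AGGA or TGGA (read on the transcript strand) occurred in 46.0% of the 30-nt windows around pellet peaks of Sptbn1 and in 40.3% of those of Ank2. They occurred in 40.2% of windows around the pellet peaks of all transcripts. In windows placed at every position of the genes' own coding sequences they occurred in 45.2% for Sptbn1 and 35.9% for Ank2. Of the 4 sites printed above, Sptbn1 site 3 and Ank2 site 1 hold AGGA, and Sptbn1 sites 1 and 5 hold neither. ACTG or ACTT occurred in 19.3% of windows on Sptbn1, 20.1% on Ank2 and 20.7% on all transcripts. Codons for acidic residues made up 19.3% of the codons in the windows of Sptbn1 and 18.6% in those of Ank2, against 14% over all transcripts and 17.9% and 16.2% over the genes' own coding sequences. These are descriptions of letters in windows and do not show what binds there.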

How the data were processed

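The deposited table held whole-number counts per gene for 36 libraries, without normalization. The authors trimmed reads with cutadapt 2.10, removed non-coding RNA with Bowtie2 2.3.5, aligned to GRCm38 with STAR 2.7.8a, removed duplicates with Picard and SAMtools 1.19.2 and counted with featureCounts 2.2.0, per the labels and the submitters' processing notes. For 12 standard RPF libraries the authors deposited peaks of RPF signal, called per sample on Ensembl 102 transcripts. The scale of the peak heights is not given, and only positions were used.

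Members, lists, tests and alternatives were chosen with earlier results of these data known. Protein-coding genes (GENCODE M21) that passed filterByExpr in the compared groups were normalised by TMM, and differences were tested by quasi-likelihood F-tests in edgeR 4.0.16 (limma 3.58.1, R 4.3.3), with Benjamini-Hochberg adjustment over all genes tested and a threshold of 0.05. Cdk8 stayed in these fits and was left out only of CPM values. The fits were tested on simulated data. The text names all 9 members, Fmr1 and Cdk8 as checks, the 2 highest and 2 lowest called genes of the partner lists in occupancy and enrichment (those described), and the 5 genes most like the members. Peaks were joined across libraries where their middles lay within 6 nt. Alternatives were RLE factors, total count without Cdk8, no filter, all genes, DESeq2 1.42.0, a replicate block, the low nuclease libraries and leaving out each library. Pandas 2.3.3, numpy 2.4.6 and matplotlib 3.10.9 were run in Python 3.11.15. All 9 members passed the filter in all 17 comparisons. Some genes that the rule for named genes picked are not reported here.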

Additional observations from a re-analysis of the deposited data

Results flagged for a closer look

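Sptan1 had 84 peaks on a transcript other than the one the count table names, 62 of them in pellet libraries and the rest in fraction 5/6. They were set aside in the report because they lie on another transcript, and they drew attention as a signal in data that the report's comparisons did not use. They came from 6 of the 12 libraries, and the other 6 libraries had none.

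For Ank1 in the standard preparation, every WT pellet library lay above the mean of WT fraction 5/6 and every FMR1 KO pellet library lay below the mean of FMR1 KO fraction 5/6. The mean difference in FMR1 KO was -0.956 (log2, TMM-scaled) relative to that in WT, and on this reading the difference was not tested. It rests on FMR1 KO fraction 5/6 replicate 3, without which the FMR1 KO enrichment of Ank1 was 0.90. In the fit across all genes the difference between the genotypes was -2.15 ± 1.25 (edgeR's quasi-likelihood test, adjusted p = 0.897).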

How the results depend on the processing

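Of 176 fold changes under 2300 alternatives, 2049 kept their side of the threshold, of which 158 changed sign with no call before or after, 175 no longer passed, 36 newly passed and 40 turned. Total count without Cdk8 turned the occupancy of Sptbn1 (-0.30), Sptbn4 (-0.71), Ank1 (-1.11), Ank2 (-0.50), Ank3 (-0.94) and Utrn (-0.83) in WT, and of Sptbn1 (-0.34), Sptbn4 (-0.74), Ank2 (-0.38), Ank3 (-0.88), Macf1 (-1.07) and Utrn (-0.74) in FMR1 KO. It also turned fraction 5/6 occupancy of Utrn (-1.08 in WT and -0.91 in FMR1 KO). This scaling moves the median of all genes in the same direction, as given in the report. In the low nuclease preparation, where 3 RNA-seq libraries lay mostly on 10 genes, occupancy turned in WT for Sptan1 (-0.13), Sptbn1 (-1.23), Sptbn4 (-1.92), Ank2 (-0.96), Ank3 (-0.78), Plec (-1.27) and Sgce (-0.021), and in FMR1 KO for Sptbn1 (-1.09), Sptbn4 (-1.38), Ank2 (-0.99), Macf1 (-1.29), Utrn (-0.19), Plec (-0.72) and Sgce (-0.42). Without those libraries, an alternative chosen after seeing the data that leaves 1 RNA-seq library in FMR1 KO, assumed to vary like the others, the turned values were -0.63 (Sptbn1), -1.74 (Sptbn4), -0.52 (Ank2) and -1.10 (Plec) in WT and -0.066 (Sptan1), -0.53 (Sptbn1), -1.46 (Sptbn4), -0.79 (Ank2), -1.25 (Macf1) and -0.67 (Plec) in FMR1 KO. The cause was not tested.

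The number of members called moved as follows. By total count it was 8 for WT occupancy (5 in the report), 8 for WT fraction 5/6 occupancy (2), 0 for FMR1 KO enrichment (7) and 4 for FMR1 KO low nuclease enrichment (7). WT occupancy gave 3 in the low nuclease preparation without 1 RNA-seq library. For the 2 preparations it was 2 in WT with RLE factors (4) and 2 in FMR1 KO with DESeq2 (1). With a replicate block it was 4 for FMR1 KO enrichment, 8 for FMR1 KO low nuclease enrichment (Sptan1 then being called), 2 for the WT preparations and 0 for the FMR1 KO preparations. The replicate numbers were not taken to pair the libraries: 22 of 90 same-numbered pairs correlated above 0.1 (-0.19 to 0.47), and between pellet and fraction 5/6 of 1 genotype and preparation r ran from -0.015 to 0.31, with no such comparison above 0.1 in all 3 pairs. Whether same-numbered libraries share a gradient is not given in the sources used here.

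Leaving out each library in turn gave 3 to 5 members called for WT occupancy, 2 to 4 for FMR1 KO occupancy, 1 to 7 and 5 to 7 for fraction 5/6 occupancy in WT and FMR1 KO, 0 to 6 and 2 to 6 for enrichment in WT and FMR1 KO, 3 to 7 and 0 to 6 for low nuclease enrichment in WT and FMR1 KO, 0 in all 7 genotype comparisons, and 1 to 4 and 0 to 2 for the preparations in WT and FMR1 KO. Sites found in all pellet libraries stayed at 0 on Sptbn1 and Ank2 with the other matching distances, the higher peaks alone and each library left out, while within the 3 libraries of 1 genotype Sptbn1 had 1 in WT and 1 in FMR1 KO and Ank2 had 0. For FMR1 KO enrichment the count was 2 without pellet replicate 3 or fraction 5/6 replicate 1, 3 without fraction 5/6 replicate 3 and 4 without pellet replicate 1. For WT low nuclease enrichment it was 3 without pellet replicate 1 or 3, and 4 without pellet replicate 2 or fraction 5/6 replicate 1. For FMR1 KO low nuclease enrichment it was 0 without fraction 5/6 replicate 3, 1 without pellet replicate 2, 2 without fraction 5/6 replicate 1 or 2, and 4 without pellet replicate 3. Occupancy fell to 3 in WT without RNA-seq replicate 1 and to 2 in FMR1 KO without pellet replicate 1, and fraction 5/6 occupancy in WT was 1 without RNA-seq replicate 1 and 7 without fraction 5/6 replicate 3. The count for the preparations dropped to 1 in WT without standard pellet replicate 1 or low nuclease replicate 1 or 3, to 2 without standard replicate 2, and in FMR1 KO to 0 without any of standard replicates 1 to 3 or low nuclease replicates 2 and 3. Ank1 ranged from -1.06 (without FMR1 KO fraction 5/6 replicate 3) to 2.07 for FMR1 KO fraction 5/6 occupancy, and from -2.27 to 0.90 (without the same library) for FMR1 KO enrichment. The lowest count of a member was 54, for Sptbn4 in that library, so depth limits the low members most there.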

Other observations

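Further genes of the partner lists stood at the ends of their comparisons by the rule for named genes. By occupancy with TMM, Sgce (epsilon-sarcoglycan, of the dystrophin complex) was at 5.43 ± 1.44 in WT and 4.86 ± 1.16 in FMR1 KO (edgeR's quasi-likelihood test, adjusted p = 0.0121 and 0.00843). Its libraries varied widely, at 169 ± 145 CPM in the standard WT pellet against 8.91 ± 2.51 CPM in the low nuclease WT pellet. With all low nuclease libraries its occupancy was -0.021 in WT and -0.42 in FMR1 KO. By enrichment, the lowest called genes in FMR1 KO were Drp2 (0.60) and Scn2a (0.91), a dystrophin-related protein and a sodium channel. With low nuclease, the rule also named Sptb (0.55) in WT and Dmtn (-0.43) in FMR1 KO. Sptb is another beta spectrin and lay on the same side as Sptbn1 and Sptbn4.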
